A study of Rattus norvegicus with 4 samples.

Results

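The central steps of glycolysis, from glucose-6-phosphate isomerase to enolase, were followed at the transcript level in INS-1 832/3 cells, a clonal rat insulinoma line that secretes insulin in response to glucose and carries a human insulin gene. The 9 genes were fixed by name as Gpi, Aldoa, Aldoc, Tpi1, Gapdh, Pgk1, Pgam1, Eno1 and Eno2. They and the lists used below were chosen with earlier results of these data known. Shares of all genes printed beside their counts are therefore not a test of these sets. Transcript values were summed per gene symbol, and 8 of the 9 symbols were found among the 23360 in the data. Gapdh, which encodes glyceraldehyde-3-phosphate dehydrogenase, was matched under neither its current symbol nor its older symbols and is not analysed here. Polyadenylated RNA was sequenced from 2 biological replicates of a standard 2D-monolayer culture without hydrogel and 2 of a 3D-bioprinted culture in GelXA LAMININK 411, a gelatin-based bioink containing laminin 411. All 4 samples were at passage 3 and were harvested after 5 days. Printing, hydrogel and culture geometry differ together between the groups, so the culture systems are compared as wholes, and 1 clonal tumour line stands for beta cells.

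Glycolysis splits glucose into pyruvate. After glucose is phosphorylated, Gpi converts glucose 6-phosphate to fructose 6-phosphate, and aldolase cleaves the bisphosphate made from it into 2 triose phosphates that Tpi1 interconverts. Gapdh, Pgk1, Pgam1 and enolase then carry the triose to phosphoenolpyruvate, with ATP formed at the Pgk1 step. These enzymes work near equilibrium and are abundant in most cells, whereas phosphofructokinase commits sugar to the pathway. In beta cells, glycolytic flux couples the glucose level to insulin secretion. Aldoa and Eno1 are the ubiquitous forms of aldolase and enolase, and Aldoc and Eno2 are the forms known from brain and neuroendocrine cells.

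Values are TPM, a transcript abundance normalized for transcript length that sums to 1000000 in each sample. The depth of sequencing cannot be recovered from such values, and their counting error is unknown. The beta cell markers matched in 12 of 12 cases, none at 0 throughout, and summed to between 147689 and 170561 TPM per sample. Of the fibroblast and stellate markers, 5 of 6 matched, 3 were at 0 in all samples and the sum was at most 0.0248 TPM. Endothelial markers (4 of 5 matched, 1 at 0 in all samples) summed to 1.08 and 1.15 TPM in 2D and 1.40 and 1.68 TPM in 3D. Blood markers (3 of 4 matched, 2 at 0 in all samples) summed to 0.516 to 0.789 TPM in 2D and 0.863 to 1.45 TPM in 3D. The other islet endocrine markers (4 of 4 matched, 1 at 0 in all samples) summed to 42.1 and 74.2 TPM in 2D and 124 and 155 TPM in 3D, nearly all of it glucagon (Gcg). Gcg moved with the culture groups, and its part in the results was not tested. In bulk RNA, a change in the number of cells that express a gene and a change in RNA per cell cannot be told apart.

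Higher transcript levels were measured for 5 of the 8 enzyme genes in 3D-bioprinted cells. These were Gpi, Aldoa, Aldoc, Tpi1 and Eno2, with TPM ratios of 3D to 2D from 1.43 to 3.38. Pgk1, Pgam1 and Eno1 did not pass the test, and the ratios of Pgam1 and Eno1 were 1.04 and 1.09. Calls are adjusted p-values below 0.05 in limma on log2(TPM + 1), with Benjamini-Hochberg adjustment over the 11960 genes with a mean of at least 1 TPM. Across all genes tested, 38% were called, 18.5% as higher in 3D and 19.5% as lower. The 8 genes were above 0 on the log2 scale in 8 of 8 cases with a median log2 fold change of 0.50, against a median of -0.0031 over all genes tested. For 7 of the 8 genes the 2 groups did not overlap, a pattern seen in 75.5% of all genes tested.

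Gpi, the isomerase at the entry of this stretch, measured 199 and 195 TPM in the 2D samples and 303 and 280 TPM in the 3D samples. Both 3D samples lay above both 2D samples by a wide margin compared with the gap within either group. Its mean was 197 ± 2.64 TPM in 2D and 292 ± 16.2 TPM in 3D (SD, n = 2 each), for a log2 difference of 0.52 and an SE of 0.066 (limma adjusted p = 0.00595).

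Aldoa, which encodes the main aldolase of these cells, measured 545 and 515 TPM in 2D and 928 and 843 TPM in 3D. The lower 3D sample was well above the higher 2D sample. The means were 530 ± 21.0 and 886 ± 60.4 TPM (SD, n = 2 each), and the log2 fold change was 0.69 (SE 0.073, limma adjusted p = 0.00458). Aldoc, the brain-type aldolase, was present at a trace level of 1.79 and 1.71 TPM in 2D and at 6.45 and 5.39 TPM in 3D. On these summed values the 2D samples were close together, and the 3D samples were apart from each other but clear of both 2D samples. The means were 1.75 ± 0.0511 and 5.92 ± 0.754 TPM (SD, n = 2 each), a ratio of 3.38 on TPM, whereas the log2 fold change of 1.30 (SE 0.12, limma adjusted p = 0.00409) is damped by the pseudocount of 1 TPM.

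Tpi1, which interconverts the 2 triose phosphates that aldolase releases, measured 115 and 114 TPM in 2D and 170 and 158 TPM in 3D. The groups did not overlap. The means were 114 ± 1.12 and 164 ± 8.29 TPM (SD, n = 2 each), and the log2 fold change was 0.47 (SE 0.065, limma adjusted p = 0.00693).

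Pgk1, the kinase that forms ATP from bisphosphoglycerate, measured 312 and 299 TPM in 2D and 385 and 349 TPM in 3D. The groups did not overlap, but the 3D samples differed from each other nearly as much as the lower of them differed from the higher 2D sample. The means were 306 ± 8.93 and 367 ± 25.5 TPM (SD, n = 2 each). The log2 fold change of 0.22 (SE 0.071, 95% interval 0.042 to 0.40) had an adjusted p of 0.0580 in limma and was not called. Without scaling between samples it was 0.26 with an adjusted p of 0.0286, and with a minimum mean of 5 TPM it was 0.24 with an adjusted p of 0.0344, whereas with no expression filter it was 0.18 (limma adjusted p = 0.130) and without 3D replicate 1 it was 0.14 (limma adjusted p = 0.306).

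Pgam1, the mutase that moves the phosphate of phosphoglycerate, measured 495 and 469 TPM in 2D and 511 and 493 TPM in 3D. The groups overlapped, since the lower 3D sample lay below the higher 2D sample. The means were 482 ± 18.7 and 502 ± 13.0 TPM (SD, n = 2 each). The log2 fold change was 0.014 (SE 0.057, limma adjusted p = 0.857), with a 95% interval from -0.13 to 0.16. Its sign turned when no expression filter was used (-0.023) or when 3D replicate 1 was left out (-0.022).

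Eno1, the ubiquitous enolase, measured 687 and 659 TPM in 2D and 738 and 723 TPM in 3D. The groups did not overlap, with means of 673 ± 19.7 and 731 ± 10.7 TPM (SD, n = 2 each), but the log2 fold change was 0.075 (SE 0.057, 95% interval -0.067 to 0.22) and was not called (limma adjusted p = 0.329). Eno2, the neuron-type enolase that also marks neuroendocrine cells, measured 31.5 and 34.3 TPM in 2D and 57.1 and 50.0 TPM in 3D. Both 3D samples stood clear of the 2D samples. The means were 32.9 ± 1.95 and 53.5 ± 5.01 TPM (SD, n = 2 each), with a log2 fold change of 0.64 (SE 0.10, limma adjusted p = 0.00900).

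**Figure D1:**
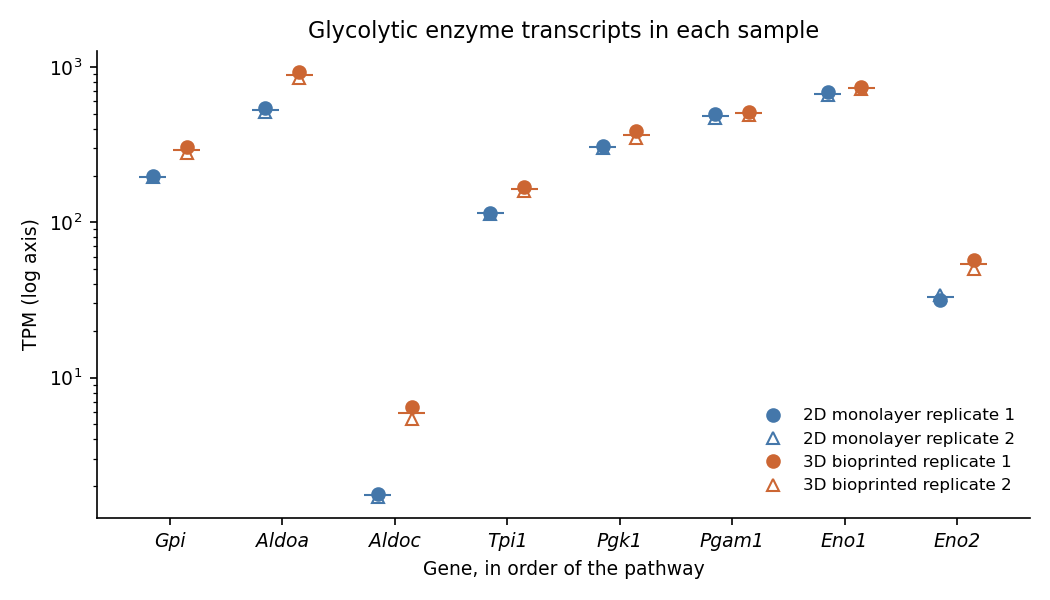
TPM of the 8 measured genes on a log axis, ordered by step, with circles for replicate 1, triangles for replicate 2 and a line at each group mean. The 3D samples lie above the 2D samples for every gene but Pgam1, where the groups overlap, and the distance between groups is widest for Aldoc (1.75 to 5.92 TPM).

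The calls, though not the direction of the 5 called genes, depended on 3D replicate 1. It was higher than 3D replicate 2 in 8 of 8 genes, with within-group log2 differences from 0.052 to 0.24 in 3D and from 0.0053 to 0.19 in 2D. Without 3D replicate 1, Aldoc alone of the 8 genes was called (limma adjusted p = 0.0483). Gpi, Aldoa, Tpi1 and Eno2 then had log2 fold changes of 0.45, 0.61, 0.41 and 0.54 and were not called. That fit, in which the lone 3D sample is assumed to vary like the 2D samples, called 1.14% of all genes.

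With isoforms summed per step, aldolase measured 547 and 517 TPM in 2D and 935 and 849 TPM in 3D. This sum was nearly all Aldoa and differed by a log2 fold change of 0.70 (SE 0.073, limma adjusted p = 0.0046). Enolase measured 722 and 697 TPM in 2D and 800 and 778 TPM in 3D. The enolase groups did not overlap, but the log2 fold change of 0.11 (SE 0.059, 95% interval -0.037 to 0.26) was not called (limma adjusted p = 0.185). The phosphoglycerate kinase and mutase sums matched Pgk1 and Pgam1, with adjusted p-values of 0.0580 and 0.856, and the dehydrogenase step could not be evaluated, so 1 of 4 sums was called where 37.9% of all features in that fit were.

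Aldoc made up 0.326% and 0.331% of aldolase TPM in 2D and 0.690% and 0.635% in 3D. The share was higher in both 3D samples, but Aldoa remained by far the main form. Eno2 made up 4.37% and 4.92% of enolase TPM in 2D and 7.14% and 6.43% in 3D. These shares, which no scaling between samples can move, were separated between the groups with a mean of 4.64 ± 0.389% in 2D and 6.78 ± 0.499% in 3D (SD, n = 2 each). Expressed as ratios, there were 305 and 301 Aldoa transcripts per Aldoc transcript in 2D and 144 and 156 in 3D, and 21.8 and 19.2 Eno1 transcripts per Eno2 transcript in 2D and 12.9 and 14.5 in 3D. With 2 samples against 2, the exact two-sided permutation test cannot give a p below 0.333, and it gave 0.333 for both shares.

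**Figure D2:**
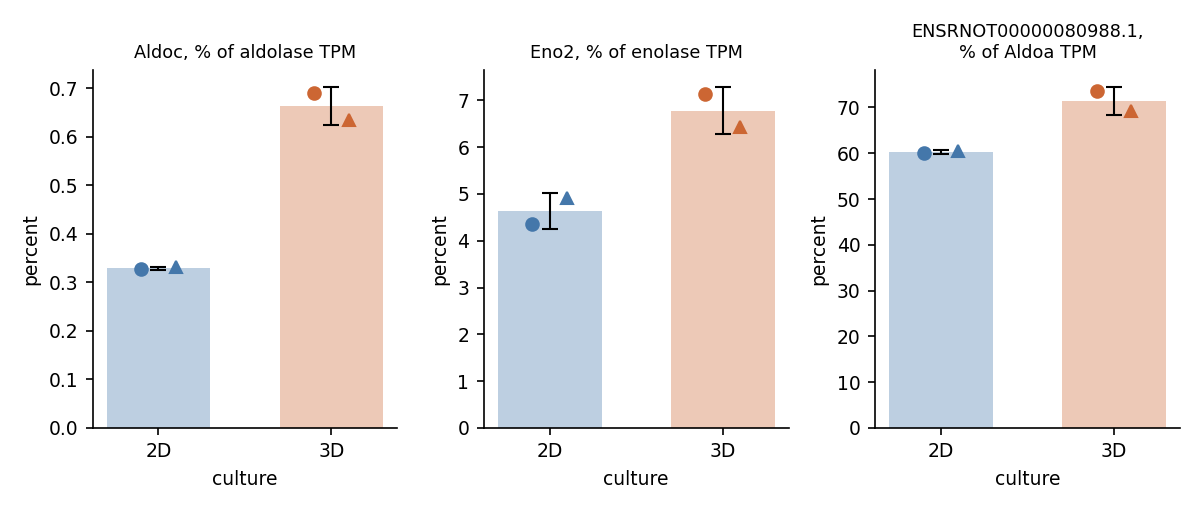
Percent of aldolase TPM from Aldoc (left), of enolase TPM from Eno2 (middle) and of Aldoa TPM from 1 of its transcript models (right). Bars are means of 2 samples, error bars 1 SD, circles replicate 1 and triangles replicate 2. The mean for Aldoc is 0.329% in 2D and 0.663% in 3D, that for Eno2 is 4.64% and 6.78%, and that for the Aldoa model is 60.3% and 71.4%, with no overlap between the groups in any panel.

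Summed over the 8 genes, the enzymes took 2387 and 2287 TPM in 2D and 3100 and 2902 TPM in 3D. Both 3D samples were above both 2D samples, and the mean sum was 0.234% of all TPM in 2D and 0.300% in 3D (exact permutation p = 0.333, the smallest possible). After scaling between samples the ratio of 3D to 2D was 1.25, against 1.28 on the TPM as deposited.

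The measured genes spanned a wide range of levels, and TPM is per length so that levels may be compared between genes. In 2D the order from high to low was Eno1, Aldoa, Pgam1, Pgk1, Gpi, Tpi1, Eno2 and Aldoc, and in 3D it was the same except that Aldoa stood first and Eno1 next. No 2 neighbours in either order overlapped in their ranges over the 2 samples. Aldoa measured 0.793 and 0.782 of Eno1 in 2D and 1.26 and 1.17 of it in 3D. Among all tested genes, Eno1 stood at percentile 98.4 in 2D, and Aldoc at percentile 6.82 in 2D and 23.0 in 3D.

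Within a sample, the ratio of the summed Gpi, Aldoa and Tpi1 to the summed Pgk1, Pgam1 and Eno1 was 0.575 and 0.577 in 2D and 0.857 and 0.818 in 3D. The ratio was close between replicates and higher in 3D, as was that of Aldoa to Pgam1, which was 1.10 in both 2D samples and 1.82 and 1.71 in the 3D samples. These ratios were chosen after the values were seen and are descriptions only, and whether the fold changes of the genes differ from each other was not tested.

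Aldoa values came from 3 transcript models. ENSRNOT00000080988.1 measured 327 and 312 TPM in 2D and 683 and 583 TPM in 3D, and its share of Aldoa went from 60.0% and 60.5% to 73.5% and 69.2% (exact permutation p = 0.333, the smallest possible). The other two models had ratios of 3D to 2D of 1.22 and 1.13. Of the 2 Eno1 models, ENSRNOT00000024106.7 carried 77.6% and 83.6% of Eno1 in 2D and 79.1% and 77.1% in 3D, ranges that overlap. For Aldoc, ENSRNOT00000015535.8 measured 1.79 and 1.19 TPM in 2D and 6.19 and 5.39 TPM in 3D. ENSRNOT00000086036.1 measured 0 and 0.528 TPM in 2D and 0.269 and 0 TPM in 3D. The 2D samples of Aldoc were thus close only in the sum over models. Gpi, Tpi1, Pgam1 and Eno2 each had 1 model. Salmon divides reads between models that share sequence, so these splits are estimates. The rat annotation also lists pseudogenes named after Aldoa (9), Tpi1 (3), Pgk1 (8), Pgam1 (13) and Eno1 (30) and none named after Gpi, Aldoc or Eno2. Whether reads were shared with these copies was not tested, so the levels of the genes that have them are uncertain.

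Promoter windows from RefSeq (build GRCr8, 250 bases before to 50 after the start) were read for 8 of the 9 genes, 11 windows in all, with no entry used for Pgk1. ACGTG is the core of the sequence that hypoxia-inducible factors bind, and glycolytic genes are textbook targets of them. Searched on both strands, it stood in 7 of the 11 windows, against 19.3% of all 33469 windows. These windows belong to 7 of the 8 genes, a count for which no share over all genes was computed. The single match of each of these windows is shown on the gene's strand, with ACGTG or its reverse complement CACGT in capitals, to let the called and uncalled genes be compared.
Gpi, chr1:95993213-95993241, minus strand: tcctcttccgtgCACGTactgctccgtgt
Aldoa, chr1:190836953-190836981, minus strand: tgtggctcgagtCACGTcctagcggggcg
Aldoc, chr10:63715501-63715529, plus strand: cccccagggagtCACGTagctctgcggca
Gapdh, chr4:159652572-159652600, minus strand: gctttacgggtgCACGTagctcaggcctc
Pgam1, chr1:250672999-250673027, plus strand: ccctaattgcttACGTGcgctccgtgact
Eno1, chr5:166003387-166003410, plus strand: ccgagtcgcgctCACGTttgtcct
Eno2, chr4:159267343-159267371, minus strand: acccgcgctcgtACGTGcgtctccgcctg

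The motif stood in windows of Gpi, Aldoa, Aldoc and Eno2, which were called, and equally in windows of Pgam1 and Eno1, which were not, and no match was found in the window of Tpi1, which was called. The related letters GCGTG stood in 5 of the 11 windows against 29.7% of all windows. ACGTG also forms part of CACGTG, which stood in 0 of the 11 and in 6.42% of all windows. The GC box letters GGGCGG stood in 7 of the 11 windows against 33.1% of all, and the median GC content was 62.3% against 51.7% of all windows. These are letter matches only, in a build other than that of the authors' quantification.

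Other genes named here for the same steps were at low levels, apart from Bpgm. Gapdhs, the sperm form of the dehydrogenase, and Eno4 did not exceed 0.219 TPM, and Pgk2 and Pgam2 were listed at 0 in all 4 samples. Eno3, the muscle enolase, measured 3.05 and 3.53 TPM in 2D and 4.39 and 4.21 TPM in 3D, with a log2 fold change of 0.27 that was not called (limma adjusted p = 0.107). Bpgm, which makes bisphosphoglycerate from the substrate of Pgk1, moved the other way. It measured 23.6 and 25.1 TPM in 2D and 16.1 and 17.1 TPM in 3D, for a log2 difference of -0.57 (SE 0.078, limma adjusted p = 0.0069).

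Of 12 listed genes for the other steps of glycolysis, 11 matched and 7 were tested. In 3D, 4 of the 7 were called higher and 0 lower, beside background shares of 18.5% higher and 19.5% lower. The median log2 fold change of the 7 genes was 0.33. Pfkp, a phosphofructokinase subunit, measured 42.2 and 36.4 TPM in 2D and 92.7 and 78.8 TPM in 3D (log2 fold change 1.06, limma adjusted p = 0.0041). Pfkl, another subunit, measured 50.9 and 52.8 TPM in 2D and 93.1 and 85.1 TPM in 3D (log2 fold change 0.73, limma adjusted p = 0.0046). Pklr, the pyruvate kinase of liver and red blood cells, measured 101 and 102 TPM in 2D and 153 TPM in both 3D samples (log2 fold change 0.54, limma adjusted p = 0.0044). Phosphofructokinase acts between Gpi and aldolase, and pyruvate kinase acts after enolase. The fourth called gene was Pkm, the other pyruvate kinase (log2 fold change 0.33, limma adjusted p = 0.0186). The muscle subunit Pfkm had a log2 difference of -0.16 (limma adjusted p = 0.0634). Pkm and Pfkm were named after their values were seen. Hk1, the ubiquitous hexokinase, was listed at 0 in all 4 samples, and Ldha, lactate dehydrogenase A, did not exceed 0.0463 TPM.

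**Figure D3:**
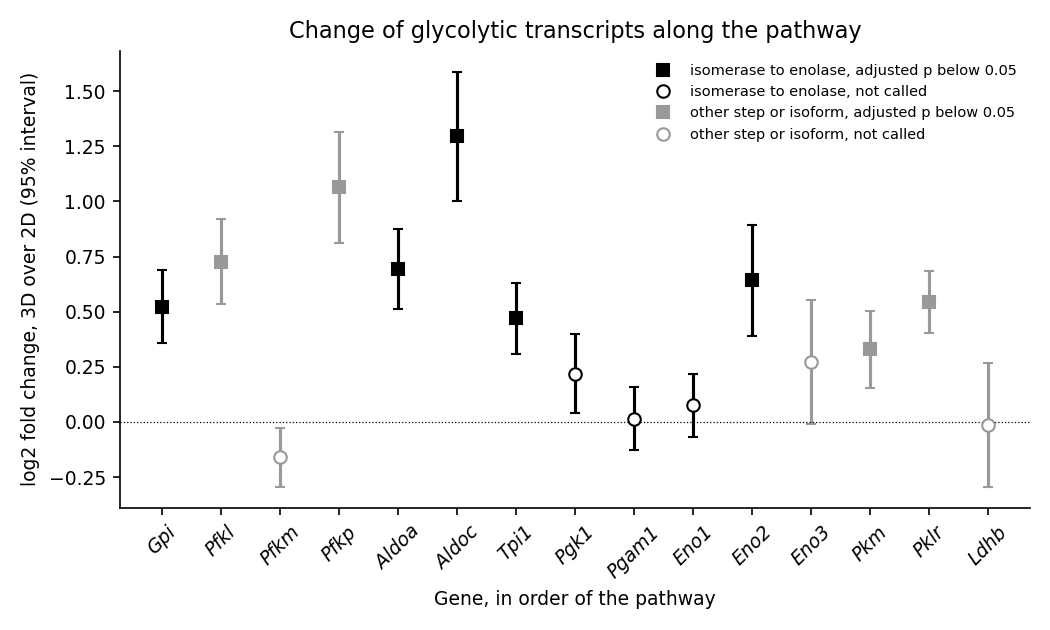
Log2 fold change of 3D-bioprinted over 2D-monolayer, with 95% intervals from limma, for 15 tested genes of glycolysis in pathway order. Squares passed an adjusted p of 0.05 and open circles did not, black marks the isomerase to enolase genes and grey the other steps and isoforms. Values are highest for Aldoc (1.30) and Pfkp (1.06), and Pfkm and Ldhb lie below 0.

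The branches that draw on the intermediates of these steps were measured by 22 listed genes, of which 21 matched and 19 were tested. In 3D, 1 was called higher and 9 lower, with a median log2 fold change of -0.21 over the 19 genes, beside background shares of 18.5% higher and 19.5% lower. In the pentose phosphate pathway, which leaves at glucose 6-phosphate and returns at fructose 6-phosphate and triose phosphate, 3 of 6 tested genes were lower and 0 higher. Taldo1, its transaldolase, measured 189 and 195 TPM in 2D and 134 and 135 TPM in 3D (log2 fold change -0.55, limma adjusted p = 0.0050). The other two were the epimerase Rpe (log2 fold change -0.46, limma adjusted p = 0.0094) and the lactonase Pgls (-0.29, adjusted p = 0.0451). Of the hexosamine branch, which takes fructose 6-phosphate for protein glycosylation, 1 of 4 tested genes was lower, Uap1 (log2 fold change -0.29, limma adjusted p = 0.0317). Its entry enzyme Gfpt1 gave a log2 fold change of 0.37 (adjusted p = 0.0505), and Pgm3 one of -0.21 (adjusted p = 0.111).

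The branch gene called higher was Gpd1, which reduces the dihydroxyacetone phosphate that Tpi1 also uses to glycerol 3-phosphate. Gpd1 measured 32.4 and 36.1 TPM in 2D and 78.2 and 83.4 TPM in 3D, for a log2 difference of 1.17 (SE 0.087, limma adjusted p = 0.0035). Pgp, a phosphatase that removes phosphate from glycerol 3-phosphate, went down from 37.0 and 35.5 TPM in 2D to 26.3 and 27.4 TPM in 3D (log2 fold change -0.46, limma adjusted p = 0.0056). Gpd1l, a relative of Gpd1, gave a log2 fold change of 0.20 (adjusted p = 0.112). Gpd1 and Pgp were the 2 called among the 5 genes tested in the glycerol 3-phosphate branch. In the serine branch, which leaves at the product of Pgk1, both tested genes were lower. Psph, its last phosphatase, measured 63.4 and 58.2 TPM in 2D and 40.5 and 40.0 TPM in 3D (log2 fold change -0.62, limma adjusted p = 0.0041), and Psat1, its aminotransferase, gave a log2 fold change of -0.44 (adjusted p = 0.0069). The first enzyme Phgdh did not exceed 0.022 TPM. Glo1 and Hagh, which clear the methylglyoxal that triose phosphates give off, were both lower (log2 fold changes -0.27 and -0.26, limma adjusted p = 0.0339 and 0.0407).

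Of 8 gluconeogenic genes, 6 matched and 2 were tested. Neither was called, where 38% of all genes tested were. G6pc3 had a log2 fold change of -0.086 (limma adjusted p = 0.289, unadjusted p = 0.204). Pck2 had one of -0.16 (limma adjusted p = 0.316, unadjusted p = 0.227).

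Genes outside glycolysis that are known targets of hypoxia-inducible factors were listed because glycolytic genes are textbook targets of the same factors. Whether these factors acted in these cells was not tested. Of 20 listed genes, 20 matched and 17 were tested, with 6 called higher, 1 lower and a median log2 fold change of 0.11, where 18.5% of all genes were called higher and 19.5% lower. Bhlhe40, a transcription repressor, measured 22.9 and 20.2 TPM in 2D and 86.4 and 79.7 TPM in 3D (log2 fold change 1.86, limma adjusted p = 0.0014). P4ha1, a collagen prolyl hydroxylase subunit, measured 20.1 and 16.4 TPM in 2D and 70.5 and 57.1 TPM in 3D (log2 fold change 1.71, limma adjusted p = 0.0035). Ndrg1 went the other way, from 154 and 151 TPM in 2D to 108 and 118 TPM in 3D (log2 fold change -0.47, limma adjusted p = 0.0062). The other called targets, named after their values were seen, were higher in 3D. They were the growth factor Vegfa (log2 fold change 0.59), the kinase Pdk1 (0.58), the oxidoreductase Ero1a (0.45) and the mitophagy gene Bnip3 (0.41). Their limma adjusted p-values were 0.0079, 0.0177, 0.0089 and 0.0105. The remaining 10 tested targets were not called. Of these, Kdm3a (log2 fold change 0.40), Egln3 (0.23), Bnip3l (0.11), Ankrd37 (0.093), Mxi1 (0.048), P4ha2 (0.042) and Higd1a (0.012) were above 0. Egln1 (-0.056), Slc2a1 (-0.18) and Ddit4 (-0.23) were below 0.

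Of the 12 beta cell markers, 2 were called higher and 1 lower in 3D, where 18.5% of all genes were called higher and 19.5% lower. The higher ones were Abcc8, a subunit of the ATP-sensitive potassium channel (log2 fold change 0.83, limma adjusted p = 0.0035), and Pcsk2, a prohormone convertase (0.58, adjusted p = 0.0041). The lower one was Ins2, the rat insulin 2 gene (-0.58, adjusted p = 0.0095).

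The 5 genes outside the lists whose profile over the 4 samples was nearest to the mean profile of the 8 genes were Pja1, Hdac6, AABR07016141.1, Galnt14 and LOC100910990. The distance was Euclidean on row-centred log2 values among 7556 genes with a mean of at least 10 TPM, and ran from 0.0238 to 0.0408. Pja1, a ubiquitin ligase, measured 250 and 241 TPM in 2D and 377 and 345 TPM in 3D. Both 3D samples lay above both 2D samples. A profile over 4 samples in 2 groups holds little beyond the group difference.

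**Figure D4:**
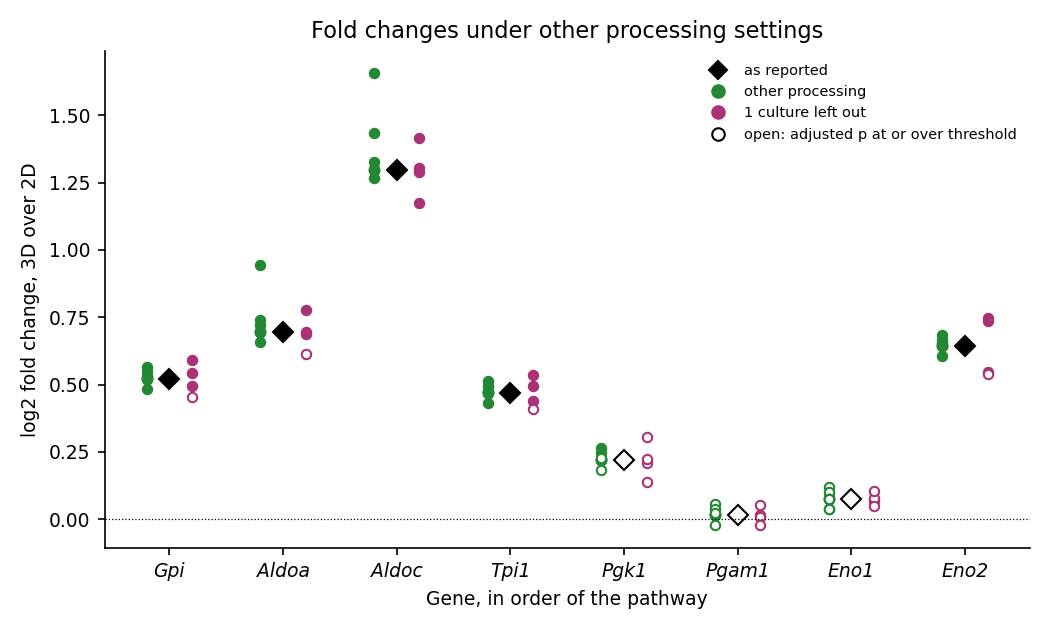
Log2 fold change of each of the 8 genes as reported (diamonds), under other processing settings (left of the diamond) and with 1 sample left out (right of it), with open symbols where the adjusted p missed the threshold. All genes but Pgam1 stay above 0 in every setting shown, and Pgam1 lies between -0.023 and 0.058.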

How the data were processed

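Reads of stranded polyadenylated libraries were quantified per transcript by the authors with Salmon 1.2 after FastQC 0.11.8, and the submitters' processing notes name the rn4 build. The deposited values are TPM, written with decimal commas. DESeq2 named in the methods needs counts, which TPM do not carry, and was not run. TPM were summed per gene symbol and samples were scaled with an unweighted TMM (trimming 30% of log ratios and 5% of mean levels at each end). The log2(TPM + 1) values of the 11960 genes with a mean of at least 1 TPM were tested with limma 3.58.1 in R 4.3.3 with an intensity trend. Scripts were tested on simulated data.

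The genes and lists were chosen with earlier results of these data known. Named were all members, isoforms of their steps, up to 3 genes with the smallest p per list and the 5 nearest profiles. Replicate numbers were checked as a pairing: deviations of same-numbered samples had a correlation of -0.006, so they were not paired. TPM keep no depth, so precision is that of 2 samples per group. Promoters and symbols came from RefSeq (GRCr8). Some listed genes are not reported here.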

Additional observations from a re-analysis of the deposited data

How the results depend on the processing

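Across 13 alternatives, 138 of 151 recomputed log2 fold changes kept their direction and side of the threshold. Of the 8 genes, 5 were called in the main analysis, where 38% of all genes tested were. With no scaling 6 were called, where 4070 of the 11960 genes tested were. Fewer of the 8 were called without 3D replicate 1. With a replicate block 5 were called, and the block changed none of the 8 calls. Of the 4 step sums, 2 were called with no scaling and 2 with a mean of at least 5 TPM, where phosphoglycerate kinase joined aldolase, and 0 to 1 with each sample left out (0 without 3D replicate 1, where 1 had an unadjusted p below 0.05 in limma). Pgam1 turned to -0.023 and the mutase sum to -0.022 with no expression filter, and both ran from -0.022 to 0.054 with each sample left out. The cause was not tested. With only the most abundant transcript per gene, the share difference was 0.446 percentage points for Aldoc and 2.82 for Eno2, against 0.334 and 2.14, since that setting drops the smaller Aldoa and Eno1 models. Over all genes, 4541 were called, 1418 at an adjusted p below 0.01, 4814 with the replicate block, 136 without 3D replicate 1 and 1037 without 3D replicate 2. Aldoc was below the filter of 5 TPM and has no value there. TPM give no depth, so low values such as those of Aldoc carry an unknown counting error.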
